A study of Homo sapiens with 12 samples.

Results

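The genes described here are CIRBP, the cold-inducible RNA-binding protein, and the splicing and RNA-binding proteins whose symbols begin with SRSF, HNRNP or RBM. They were chosen by name, with earlier results of these data known, and RBMX, RBMY and pseudogenes were left out. They comprised 66 of the 17185 genes named on the array: CIRBP itself, 12 SRSF genes, 20 HNRNP genes and 33 RBM genes. A total of 74 of the 45033 array features carried these names, and a gene with several features was represented by its brightest, on average across the arrays. To identify genes that respond to INZ (Inauhzin), a small molecule that activates p53, with and without p53, RNA was measured in 4 groups of 3 biological replicates each: HCT116 p53-/- cells treated with INZ, HCT116 p53-/- cells treated with DMSO, HCT116 p53+/+ cells treated with INZ and HCT116 p53+/+ cells treated with DMSO. INZ was given at 4 µM, and the cells were harvested 18 h later. HCT116 is a human colorectal carcinoma line, and the p53-/- cells are its derivative without active p53, so each genotype is represented by 1 cell line. DMSO is the vehicle.

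Proteins of these families bind RNA mostly through the RNA recognition motif. SRSF proteins, or SR proteins, carry a domain rich in arginine and serine, bind exonic enhancers and recruit the spliceosome to splice sites. HNRNP proteins coat nascent transcripts and often repress the splice sites near which they bind, and RBM is a mixed group named for its RNA-binding motif, with roles from splicing to rRNA processing and RNA decay. CIRBP is a small glycine-rich protein, best known for its induction by mild hypothermia and for binding and stabilising mRNAs in stressed cells. RBM3, its closest relative, had no named feature and was not analysed here.

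Of these 66 genes, CIRBP and RBM14 fell with INZ in both genotypes and RBM15 rose in p53-/- cells. To show what lies in front of these genes, the 250 bases before each gene start are given 5′ to 3′ from RefSeq (GRCh38.p14), all on the plus strand. Capitals mark the CCAAT box, a common proximal promoter element, read as CCAAT on either strand (ATTGG where it lies on the other).
CIRBP, chr19:1269082-1269331: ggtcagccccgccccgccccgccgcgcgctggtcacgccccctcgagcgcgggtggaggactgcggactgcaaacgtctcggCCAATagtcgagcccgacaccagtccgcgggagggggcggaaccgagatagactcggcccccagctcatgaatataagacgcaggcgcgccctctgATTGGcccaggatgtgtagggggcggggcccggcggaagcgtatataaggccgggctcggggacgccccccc
RBM14, chr11:66616380-66616629: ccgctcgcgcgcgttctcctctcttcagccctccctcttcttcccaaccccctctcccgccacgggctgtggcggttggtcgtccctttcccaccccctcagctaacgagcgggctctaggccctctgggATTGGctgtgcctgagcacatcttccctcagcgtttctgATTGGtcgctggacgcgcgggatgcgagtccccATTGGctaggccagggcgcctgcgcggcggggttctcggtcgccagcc
RBM15, chr1:110339127-110339376: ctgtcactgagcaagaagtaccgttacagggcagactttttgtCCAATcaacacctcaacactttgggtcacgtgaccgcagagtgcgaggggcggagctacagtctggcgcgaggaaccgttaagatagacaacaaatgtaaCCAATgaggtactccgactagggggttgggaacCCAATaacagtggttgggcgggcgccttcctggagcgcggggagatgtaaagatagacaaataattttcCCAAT
The window held 2 CCAAT matches for CIRBP, 168 and 72 bases before the start, 3 for RBM14 (120, 81 and 48 bases before it) and 4 for RBM15 (207, 107, 74 and 5 bases before it). At least 2 matches stood in 9.53% of the 35116 RefSeq promoter windows of this length and in 30.0% of the 60 member windows that could be matched by symbol. All windows were taken without a filter on gene type, while the members are protein-coding, so the 2 sets may differ in kind. A GC box (GGGCGG on either strand) was present 4 times for CIRBP and 2 times for RBM15 and had no match for RBM14, against 42.6% of all windows with at least 1 match. The mild cold response element (TCCCCGCC on either strand), a motif described for cold-responsive genes that can overlap a GC box, had no match in these 3 windows and was present in 7.75% of all windows and in 7 of the 60 member windows (11.7%). The p53 half-site likewise had no match in the 3 windows (5.57% of all windows and 5.0% of the member windows). The CIRBP and RBM15 windows overlap the antisense genes CIRBP-AS1 and RBM15-AS1. GC content was 71.2%, 67.6% and 51.6% in the CIRBP, RBM14 and RBM15 windows, against a median of 63.4% over member windows and 58.0% over all windows. These matches describe letters only, and no binding was measured.

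All values below are log2 of the deposited RMA intensity, differences are log2 fold changes from limma over the 12 arrays with 95% intervals, and a gene was called at an adjusted p (Benjamini-Hochberg over 45033 features) below 0.05. The 12 arrays correlated at 0.821 to 0.975 with each other, and no batch was labelled. CASP4, chosen after its values were seen, read 5.19 to 5.68 in p53-/- arrays and 9.40 to 10.20 in p53+/+ arrays, with 9.73 in the array labelled p53+/+ DMSO replicate 1. That array read 11.48 for GAPDH, against 13.27 to 14.90 in the other 11. Values without this array are given beside many of the p53+/+ changes below. TP53I3, a p53 target, read 13.90 to 14.20 in p53+/+ INZ cells and 9.79 to 10.13 in p53+/+ DMSO cells. Of the cell type markers, 6 of 10 for colon epithelium (EPCAM, KRT8, KRT18, KRT19, CDH1 and CDX2) lay at or above the median feature, while VIL1, CDX1, LGALS4 and CEACAM5 lay below it. Above it lay 1 of 7 for mesenchyme (COL1A1), 1 of 7 for leukocytes (CD68) and 0 of 4 for endothelium. CD68 was 1.98 higher with INZ averaged over genotypes (adjusted p = 0.00426). The summed leukocyte markers ranged from 9.33 to 9.44 in p53-/- INZ cells, 8.55 to 8.82 in p53-/- DMSO cells, 8.97 to 10.26 in p53+/+ INZ cells and 8.36 to 8.89 in p53+/+ DMSO cells, and PTPRC, CD3E, CD14, ITGAM and MS4A1 lay below the median feature. Their part in the results was not tested.

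CIRBP (NM_001280) fell with INZ in both genotypes. It read 8.40, 7.90 and 8.36 in p53-/- INZ cells, against 11.44, 11.54 and 11.51 in p53-/- DMSO cells. In p53+/+ cells it read 9.27, 10.01 and 9.50 with INZ and 10.63, 11.28 and 11.41 with DMSO. All 6 INZ arrays lay below all 6 DMSO arrays, and the 3 p53-/- INZ arrays lay below every other array. In p53-/- cells the mean was 8.22 ± 0.28 with INZ and 11.50 ± 0.05 with DMSO (SD, n = 3 each), a change of -3.27 (-3.91 to -2.64, adjusted p = 0.000101) or 9.68-fold lower (6.23 to 15.0). Only 2 of the 17185 named genes had a lower log2 fold change, and CIRBP remained called in all 22 alternative settings, at -3.45 to -3.12. In p53+/+ cells the mean was 9.59 ± 0.38 with INZ and 11.11 ± 0.42 with DMSO, a change of -1.52 (-2.15 to -0.88, adjusted p = 0.0319) or 2.86-fold lower (1.84 to 4.44).

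The p53+/+ call for CIRBP depended on the arrays used. Arrays read the RNA of a whole culture, so fewer cells with CIRBP RNA and less of it in each cell cannot be told apart. Without the array labelled p53+/+ DMSO replicate 1, which had the lowest CIRBP level of the DMSO arrays, the change was -1.76 (adjusted p = 0.0258). Of the 12 omissions of a single array, 4 left the call (p53+/+ DMSO replicates 1 and 3, and replicate 2 of p53+/+ INZ and of p53-/- INZ). The other 8 gave adjusted p between 0.0508 and 0.119, with changes of -1.52 to -1.36. Fitted on the 6 p53+/+ arrays alone, the same -1.52 had an adjusted p of 0.305.

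Between genotypes, CIRBP was lower in p53-/- than in p53+/+ cells under INZ, 8.22 against 9.59, a difference of -1.37 (-2.01 to -0.74) that missed the threshold (adjusted p = 0.0670). It was called in 7 of the 22 alternatives, at -1.44 to -1.29 and adjusted p from 0.0123 to 0.0450. These were a mean-intensity trend, the filter on dim features, quantile normalization, array weights, and leaving out the array labelled p53+/+ DMSO replicate 1 (adjusted p = 0.0307), p53+/+ INZ replicate 3 or both of them. Under DMSO, the p53-/- mean was 0.39 above the p53+/+ mean (-0.25 to 1.02, adjusted p = 0.621). The INZ change in p53-/- cells minus that in p53+/+ cells was -1.76 (-2.66 to -0.86, adjusted p = 0.469), so the difference between the genotypes in the response of CIRBP did not pass the test over all features.

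RBM14 (NM_006328), a coactivator and paraspeckle protein, had SDs of 0.08 to 0.16 in the 4 groups. In p53-/- cells it read 10.33, 10.41 and 10.24 with INZ, against 12.21, 12.06 and 11.99 with DMSO. The p53+/+ cells gave 10.70, 10.80 and 10.62 with INZ and 11.93, 12.21 and 11.94 with DMSO. No INZ array overlapped a DMSO array. The change was -1.76 (-2.26 to -1.26, adjusted p = 0.00217) in p53-/- cells, or 3.39-fold lower, and -1.32 (-1.82 to -0.81, adjusted p = 0.0208) in p53+/+ cells, or 2.49-fold lower. The first held in all 22 alternatives. The second was -1.37 (adjusted p = 0.0496) without the array labelled p53+/+ DMSO replicate 1 and was not called without p53+/+ DMSO replicate 2 or any single p53+/+ INZ array (adjusted p from 0.0543 to 0.0789), nor on the p53+/+ arrays alone (adjusted p = 0.268). The difference between the genotypes was -0.44 (-1.16 to 0.27). RBM4, a splicing regulator whose gene lies next to RBM14 and shares the readthrough locus RBM14-RBM4 with it, changed by -0.26 in p53-/- cells (adjusted p = 0.783) and -0.35 in p53+/+ cells (adjusted p = 0.639) and was not called.

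RBM15 (NM_022768), a member of the complex that methylates adenosines in mRNA, was the member that rose in p53-/- cells. It read 10.20, 9.38 and 9.40 in p53-/- INZ cells and 7.81, 8.17 and 8.28 in p53-/- DMSO cells, while p53+/+ cells read 7.94, 8.21 and 7.97 with INZ and 8.45, 8.29 and 8.07 with DMSO. The p53-/- INZ arrays thus stood above the other 9, which ranged from 7.81 to 8.45. The change was 1.58 in p53-/- cells (0.96 to 2.19, adjusted p = 0.0133), or 2.98-fold higher, and -0.23 in p53+/+ cells (-0.84 to 0.39, adjusted p = 0.761, or -0.14 without the array labelled p53+/+ DMSO replicate 1). It was not called in p53-/- cells once replicate 1 or 2 of their DMSO arrays, or replicate 1 of their INZ arrays, was left out (adjusted p from 0.0560 to 0.0819, change from 1.30 to 1.62). The difference between the 2 responses was 1.80 (0.93 to 2.67, adjusted p = 0.399). Under INZ, which shares the p53-/- INZ arrays with the comparison above, RBM15 was 1.62 higher in p53-/- than in p53+/+ cells (1.00 to 2.23, adjusted p = 0.0221). That call was lost without p53+/+ INZ replicate 1 or 2 or any single p53-/- INZ array (adjusted p from 0.0608 to 0.111). Its paralog RBM15B changed by 0.36 and 0.67 in p53-/- and p53+/+ cells, and neither was called.

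**Figure D1:**
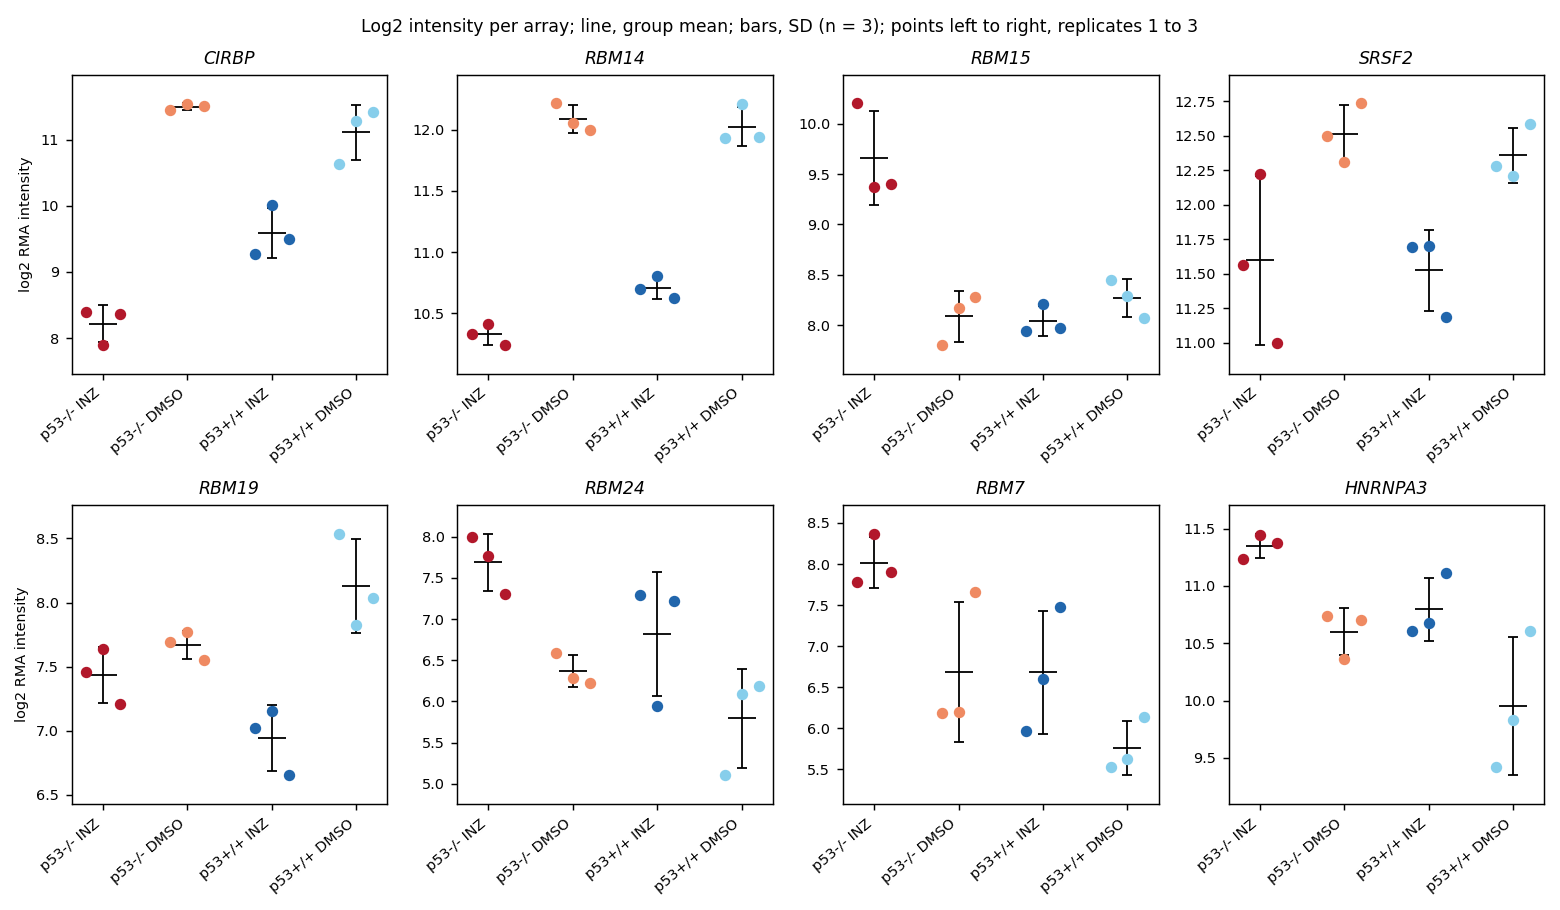
Log2 RMA intensity of the 8 genes called in an INZ comparison, on every array (points), with the mean (line) and SD (bars) of each group of 3; the vertical scale differs between panels. CIRBP and RBM14 have all 6 INZ arrays below all 6 DMSO arrays, and RBM15 is high in the 3 p53-/- INZ arrays alone.

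A small number of the 66 genes were called, at shares above those of all features in each genotype. The set was chosen with earlier results of these data known, and CIRBP is among the called genes in both genotypes. The shares are thus not independent of that choice. Of the 66, 58 lay at or above the median feature. Features that bright, tested alone, were called at 3.79% in p53-/- cells and 2.05% in p53+/+ cells. In that same test 3 of the 58 bright members were called in p53-/- cells (CIRBP, RBM14 and RBM15). In p53+/+ cells 3 of the 58 were called (CIRBP, RBM14 and RBM19). The member shares that follow are from the test over all features and include dim members. In p53-/- cells 3 of the 66 members were called (4.55%), against 1.48% of all features, of which 1 was higher (0.482% of features) and 2 were lower (0.997%). In p53+/+ cells 2 were called (3.03%), against 0.862%, and both were lower (0.333%). The difference between the 2 responses was called for 0 members, against 0.0178% of features, and 4 members had an unadjusted p below 0.05 in limma (4.71% of features). The median member change was 0.10 in p53-/- cells and 0.04 in p53+/+ cells, with -0.03 in each over all features. Without the array labelled p53+/+ DMSO replicate 1 the p53+/+ median was -0.065, so its sign rests on that array. Changes within 1.5-fold were found for 46 of the 66 genes in p53-/- cells (69.7%, against 75.2% of all features) and for 43 in p53+/+ cells (65.2%, against 72.6%). The median SD over replicates was 0.26, 0.24, 0.30 and 0.38 in p53-/- INZ, p53-/- DMSO, p53+/+ INZ and p53+/+ DMSO cells.

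**Figure D2:**
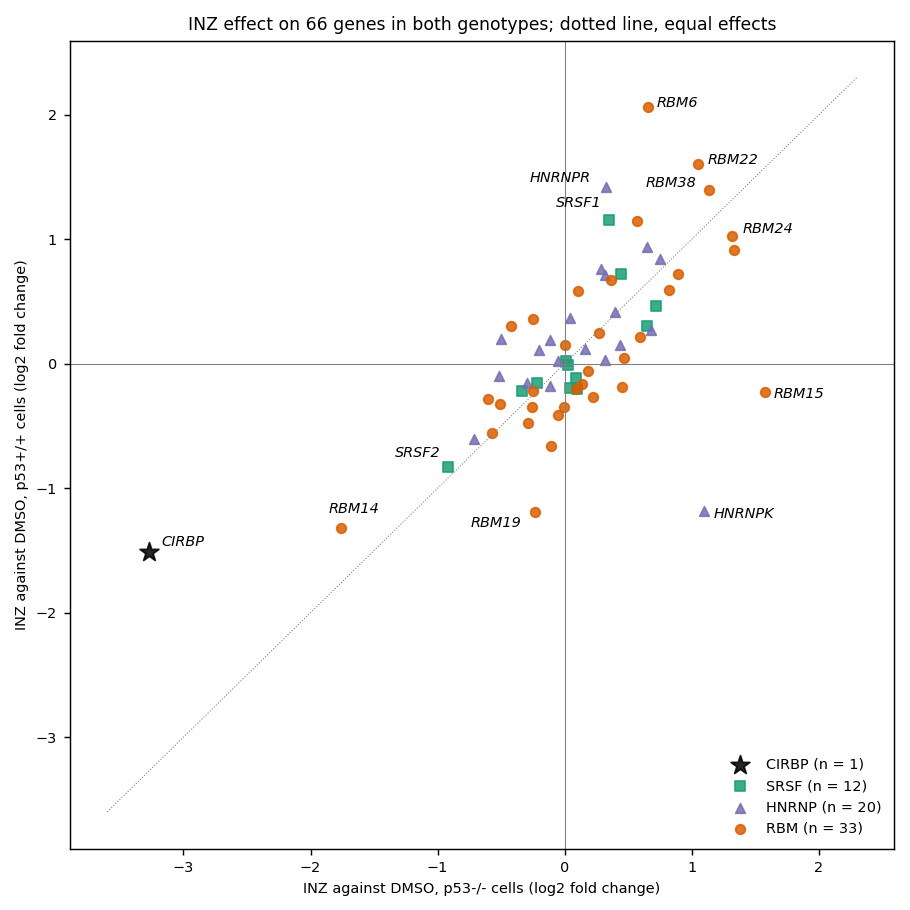
INZ effect (log2 fold change) in p53-/- cells (horizontal axis) and in p53+/+ cells (vertical axis) for each of the 66 genes, marked by family; the dotted line is an equal effect. CIRBP stands at -3.27 and -1.52 and RBM14 at -1.76 and -1.32, RBM15 (1.58 and -0.23) and HNRNPK (1.10 and -1.19) lie in the quadrant of opposite signs, and most genes lie near the origin.

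The 2 INZ comparisons share no arrays. Across the 66 genes, 19 had a negative and 30 a positive change in both, and 17 had opposite signs. Pearson's r across genes, which are not independent replicates, was 0.637, or 0.549 without CIRBP and RBM14, beside 0.554 over all features. Averaged over the genotypes, which uses the same 12 arrays again, 7 members were called (10.6%), against 5.68% of all features, of which 3 were higher (3.1% of features) and 4 were lower (2.58%). Among features at or above the median feature, tested alone, 14% were called. The member share of 10.6% is from the test over all features and includes dim members, so these shares cannot be compared directly. The 7 members were CIRBP (-2.40, adjusted p = 4.45e-05), RBM14 (-1.54, adjusted p = 0.000251), SRSF2, RBM19, RBM24, RBM7 and HNRNPA3. All 6 INZ arrays lay below all 6 DMSO arrays for 4 members (CIRBP, RBM14, RBM5 and RBM8A), against 1.95% of features, and above them for 0 members, against 1.31%.

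Among the SR proteins, no gene of the 12 was called within a genotype (against 1.48% and 0.862% of features in p53-/- and p53+/+ cells). SRSF2, an SR protein of nuclear speckles, came closest to a common decrease. It read 11.57, 12.22 and 11.00 in p53-/- INZ cells, 12.50, 12.31 and 12.73 in p53-/- DMSO cells, 11.69, 11.70 and 11.19 in p53+/+ INZ cells and 12.28, 12.21 and 12.58 in p53+/+ DMSO cells. Within each genotype its INZ and DMSO arrays did not overlap. With 3 arrays in each group, such separation also held for other members, most of them not called. Its share over all features within a genotype is not given here. The SRSF2 changes were -0.92 (adjusted p = 0.201) in p53-/- cells and -0.83 (adjusted p = 0.258) in p53+/+ cells, and the average, -0.87 (-1.36 to -0.39, adjusted p = 0.0373), was called. The averaged call remained on leaving out replicate 1 of p53+/+ DMSO or replicate 2 of either INZ group, and was lost without any other single array (adjusted p from 0.0518 to 0.0934).

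SRSF1, the SR protein that recognises GA-rich exonic enhancers, read 6.75, 7.03 and 7.13 in p53+/+ INZ cells and 4.79, 6.50 and 6.15 in p53+/+ DMSO cells, a change of 1.16 that was not called (adjusted p = 0.218). The 4.79 was that of the array labelled p53+/+ DMSO replicate 1, without which the change was 0.65. SRSF10 (0.72, or 0.35 without that array) and SRSF11 (0.46, or -0.028 without it) were the next highest in p53+/+ cells, and SRSF11 (0.72), SRSF4 (0.65) and SRSF10 (0.44) the highest in p53-/- cells, with no adjusted p below 0.329. SRSF12 (-0.34 and -0.22 in p53-/- and p53+/+ cells), SRSF8 (-0.22 in p53-/- cells) and SRSF6 (-0.20 in p53+/+ cells) were the lowest after SRSF2. Without that array SRSF12 stood at 0.017 and SRSF6 at -0.084 in p53+/+ cells. SRSF3, SRSF5, SRSF7 and SRSF9 had changes between -0.19 and 0.09. The median change of the family was 0.07 in p53-/- and -0.06 in p53+/+ cells (-0.0051 without that array).

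No HNRNP gene of 20 was called in either genotype (against 1.48% and 0.862% of features in p53-/- and p53+/+ cells). HNRNPA3, a relative of the abundant HNRNPA1 and HNRNPA2B1, read 11.23, 11.44 and 11.38 in p53-/- INZ cells, 10.74, 10.37 and 10.70 in p53-/- DMSO cells, 10.60, 10.68 and 11.11 in p53+/+ INZ cells and 9.42, 9.83 and 10.61 in p53+/+ DMSO cells. INZ and DMSO arrays were apart in p53-/- cells and overlapped in p53+/+ cells. Its average change, 0.80, was called at an adjusted p of 0.0495, and the call remained on leaving out p53+/+ DMSO replicate 3 only; the other 11 omissions gave adjusted p from 0.0603 to 0.123. HNRNPK, a poly(C)-binding protein known as a p53 cofactor, had changes of opposite sign. It read 9.06, 10.91 and 10.43 with INZ and 8.97, 9.34 and 8.80 with DMSO in p53-/- cells (1.10, adjusted p = 0.341), and 8.15, 9.45 and 8.65 with INZ and 9.82, 9.26 and 10.74 with DMSO in p53+/+ cells (-1.19, adjusted p = 0.292). The groups overlapped in both genotypes, and the difference, 2.28, was not called (adjusted p = 0.829).

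HNRNPR had the highest INZ change of the family in p53+/+ cells, 1.42 (adjusted p = 0.385), but its 3 DMSO arrays ranged from 7.61 to 11.64. The 7.61 was again that of the array labelled p53+/+ DMSO replicate 1, and the change was 0.28 without it. HNRNPD (AUF1), which binds AU-rich elements, changed by 0.65 in p53-/- and 0.94 in p53+/+ cells, HNRNPUL1 by 0.68 and 0.27, HNRNPA0 by -0.71 and -0.61, HNRNPU by -0.52 and -0.10, HNRNPH1 by -0.50 and 0.20 and HNRNPM by -0.12 and -0.18. None of these was called. Without the same array the p53+/+ changes were 0.40 for HNRNPD, -0.37 for HNRNPA0, -0.15 for HNRNPU and -0.10 for HNRNPH1. HNRNPC had 2 features that differed in direction: the one with the higher level (NM_031314) changed by 0.44 and 0.15 in p53-/- and p53+/+ cells (-0.13 in p53+/+ cells without that array), the other (NM_004500) by -0.41 and -0.50, and none was called. HNRNPA1 and HNRNPA1L2, HNRNPC and HNRNPCL1, and RBM4 and RBM4B are near-identical pairs whose probes may not tell them apart. The median change of the HNRNP genes was 0.22 in p53-/- and 0.17 in p53+/+ cells, and the p53+/+ median was -0.063 without the array labelled p53+/+ DMSO replicate 1.

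**Figure D3:**
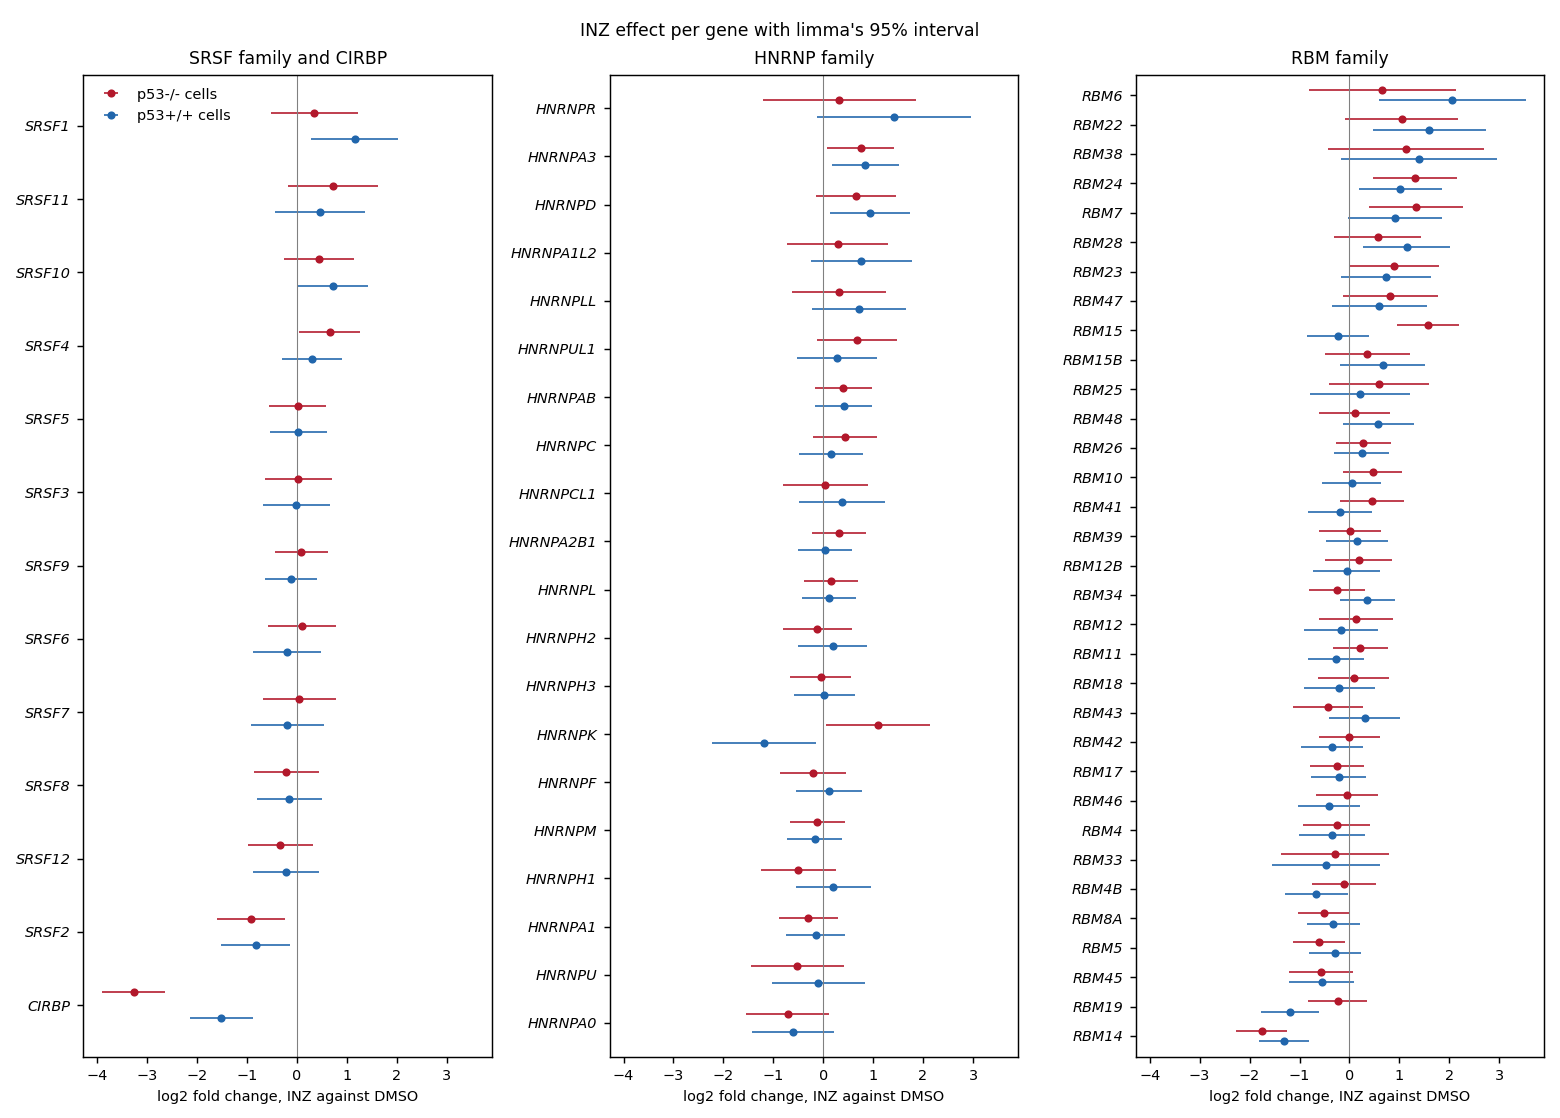
INZ effect (log2 fold change, horizontal axis) with its 95% interval for each gene, in p53-/- cells (red) and in p53+/+ cells (blue), ordered within each family by the average of both genotypes. The intervals of CIRBP and RBM14 in both genotypes and of RBM15 in p53-/- cells lie clear of 0, while HNRNPR (-0.12 to 2.96 in p53+/+ cells) is among the widest.

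Of the 33 RBM genes, RBM14 and RBM15 were called within a genotype, and RBM19, RBM24 and RBM7 on the average of both. RBM19, a nucleolar protein of rRNA processing, read 7.45, 7.64 and 7.21 with INZ and 7.69, 7.77 and 7.55 with DMSO in p53-/- cells, and 7.02, 7.16 and 6.66 with INZ and 8.54, 7.82 and 8.04 with DMSO in p53+/+ cells. The groups overlapped in p53-/- cells and not in p53+/+ cells. The change was -0.24 in p53-/- cells (adjusted p = 0.771), -1.19 in p53+/+ cells (adjusted p = 0.0643, or 0.0369 when dim features were left out) and -0.71 on average (adjusted p = 0.0460). The p53+/+ change was -0.99 (adjusted p = 0.201) without the array labelled p53+/+ DMSO replicate 1, and 0 of the 12 single omissions gave a call. Its adjusted p was 0.278 without that array and p53+/+ INZ replicate 3, 0.280 with the lower quartile as covariate and 0.391 on the p53+/+ arrays alone. Omitting replicate 2 or 3 of the p53+/+ DMSO arrays, or replicate 2 of the p53+/+ INZ arrays, left the averaged call, which was lost in the other 9 omissions (adjusted p from 0.0626 to 0.113).

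RBM24, a splicing factor of heart and skeletal muscle, read 7.99, 7.76 and 7.31 with INZ and 6.59, 6.29 and 6.23 with DMSO in p53-/- cells, a change of 1.32 (adjusted p = 0.127). In p53+/+ cells it read 7.29, 5.95 and 7.22 with INZ and 5.11, 6.09 and 6.18 with DMSO, a change of 1.02 (adjusted p = 0.258, or 0.68 without the array labelled p53+/+ DMSO replicate 1) with overlap. The average was 1.17 (adjusted p = 0.0258) and was lost in 6 omissions (p53+/+ INZ replicates 1 and 3, p53-/- DMSO replicates 2 and 3, p53-/- INZ replicates 1 and 2), at adjusted p from 0.0561 to 0.0704. RBM7, which brings RNA to the nuclear exosome as part of the NEXT complex, read 7.78, 8.37 and 7.90 with INZ and 6.19, 6.20 and 7.66 with DMSO in p53-/- cells, and 5.97, 6.60 and 7.47 with INZ and 5.53, 5.62 and 6.14 with DMSO in p53+/+ cells. Its average, 1.12 (adjusted p = 0.0489), was called again without p53+/+ DMSO replicate 3, p53+/+ INZ replicate 1 or p53-/- DMSO replicate 3 and in none of the other 9 omissions (adjusted p from 0.0640 to 0.126). Both RBM24 and RBM7 read below the median feature (6.41) on some arrays.

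RBM6 and RBM22 gave the highest changes of the family in p53+/+ cells. RBM6, a tumour suppressor candidate and splicing regulator, read 10.33, 10.04 and 11.15 with INZ and 6.24, 8.98 and 10.12 with DMSO (2.06, adjusted p = 0.195), and 0.96 without the array labelled p53+/+ DMSO replicate 1. RBM22, which contacts the catalytic core of the spliceosome, read 8.41, 6.58 and 8.98 with INZ and 5.48, 6.94 and 6.75 with DMSO (1.60, adjusted p = 0.190). RBM38 (RNPC1), a known p53 target that binds the CDKN1A mRNA, read 7.87, 7.10 and 8.62 in p53-/- INZ cells and 7.34, 6.26 and 6.58 in p53-/- DMSO cells, and 5.61, 5.29 and 8.87 in p53+/+ INZ cells and 4.72, 5.18 and 5.67 in p53+/+ DMSO cells. The 8.87 of p53+/+ INZ replicate 3 stood above its replicates, and the changes of 1.14 and 1.40 in p53-/- and p53+/+ cells were not called (adjusted p = 0.540 and 0.401). RBM5, a regulator of apoptotic splice forms, read 11.53 to 11.92 in p53-/- INZ, 12.18 to 12.36 in p53-/- DMSO, 11.72 to 11.99 in p53+/+ INZ and 12.05 to 12.28 in p53+/+ DMSO cells, with changes of -0.60 and -0.28 in p53-/- and p53+/+ cells that were not called. RBM45 changed by -0.57 and -0.56, and RBM4B by -0.11 and -0.66, again without a call.

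**Figure D4:**
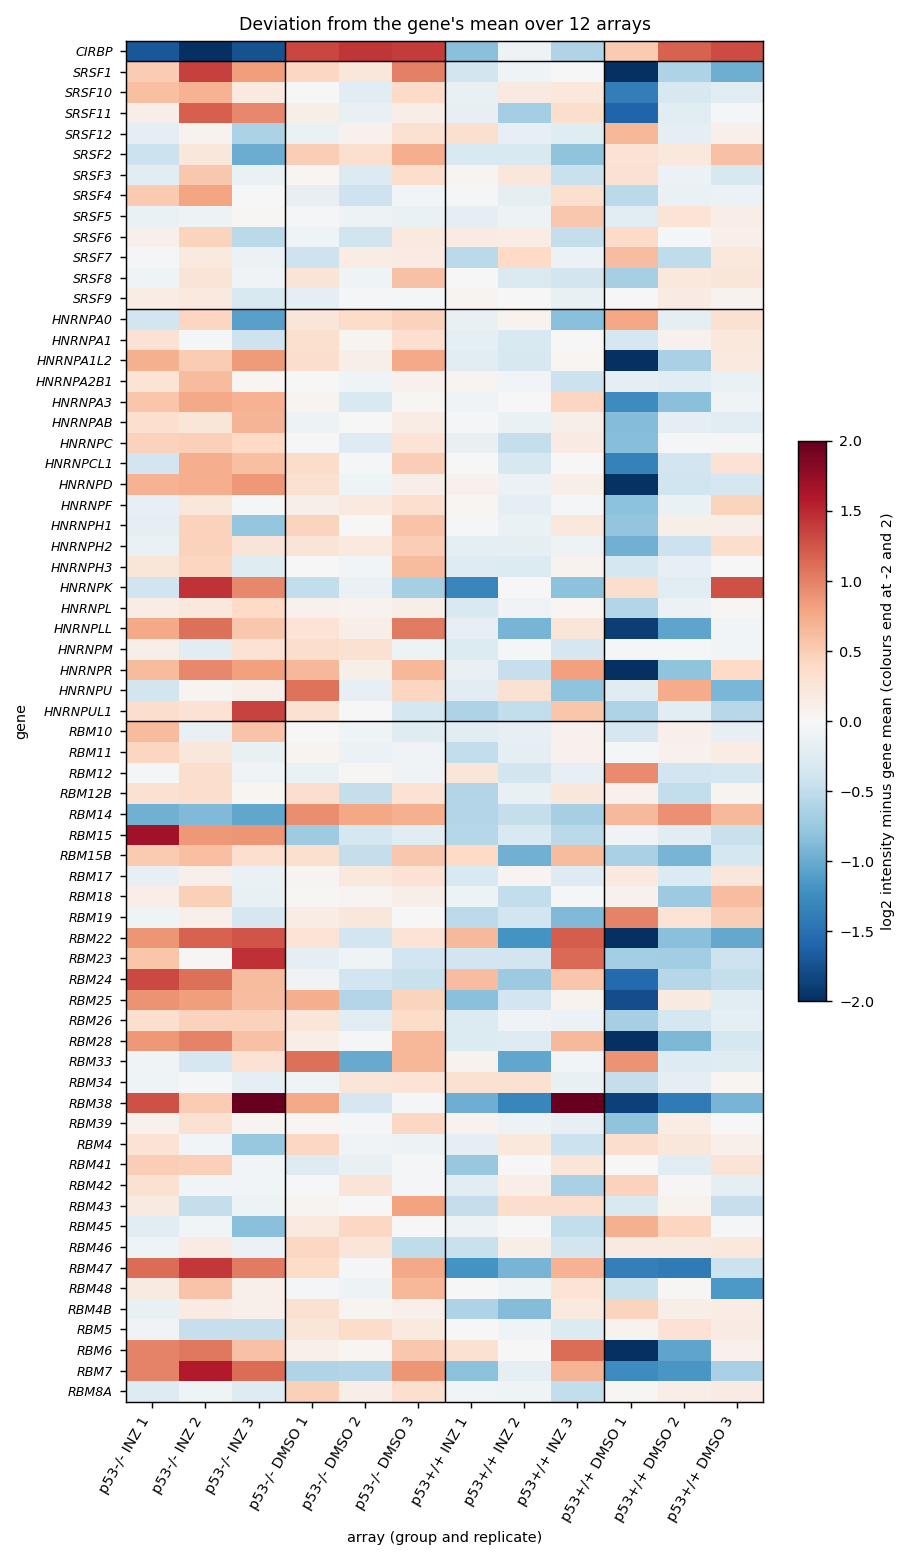
Deviation of each of the 66 genes (rows, by family) from its own mean over the 12 arrays (columns, by group and replicate), in log2 units; red is above and blue below the mean. The first p53+/+ DMSO column is blue for many HNRNP and RBM genes, and the CIRBP and RBM14 rows turn blue in the INZ columns of both genotypes.

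Between genotypes, the members read slightly higher in p53-/- cells. Under DMSO the median difference was 0.32, against -0.02 over all features, and 50 of 66 were above 0 (75.8%, against 48.4%). Under INZ the median was 0.37, against -0.02, with 55 of 66 above 0 (83.3%, against 47.9%). Few of these passed the test: 0 members under DMSO, against 0.211% of features (9 at an unadjusted p below 0.05 in limma, against 12% of features, with SRSF1 at 1.86 and adjusted p = 0.114), and RBM15 alone under INZ, against 0.484% of features (0.0711% for a higher level). HNRNP genes gave the highest family median under DMSO, 0.45, with 19 of 20 above 0. Most lists of related genes, described below, were shifted the same way. Medians under DMSO and INZ were 0.40 and 0.28 for other splicing regulators and 0.35 and 0.35 for nonsense-mediated decay and exon junction genes. They were 0.31 and 0.53 for SR protein kinases and importer and 0.12 and 0.21 for the core spliceosome. Cold shock domain genes had 0.14 and -0.15. Features at or above the median feature had 0.09 and 0.04. The array labelled p53+/+ DMSO replicate 1 read lowest of the 12 for 30 of the 66 genes (45.5%, against 19.1% of features). Without it the DMSO medians were 0.22 for all members and 0.29 for HNRNP genes. For the lists they were 0.18 (other splicing regulators), 0.074 (nonsense-mediated decay and exon junction), 0.16 (SR protein kinases and importer), 0.076 (core spliceosome) and 0.058 (cold shock domain). Without both that array and p53+/+ INZ replicate 3, 9.54% of all features were called under INZ, and with them 10 members: CIRBP lower and HNRNPLL, HNRNPUL1, RBM15, RBM25, RBM28, RBM38, RBM47, RBM7 and SRSF11 higher in p53-/- cells. The part of these arrays in the genotype differences was not tested further.

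Other genes of RNA processing were read from lists of the kinases and importer of SR proteins, other splicing regulators, the core spliceosome, nonsense-mediated decay and the exon junction, and cold shock domain proteins. In p53-/- cells 1 of 36 other splicing regulators was called (2.78%, against 1.48% of features): SYNCRIP (hnRNP Q, a relative of HNRNPR) read 10.14, 10.39 and 9.65 with INZ and 11.85, 11.98 and 11.78 with DMSO, a change of -1.81 (adjusted p = 0.00516). In p53+/+ cells it read 10.56, 10.55 and 9.94 with INZ and 11.17, 11.52 and 11.47 with DMSO (-1.03, adjusted p = 0.119), with no overlap in either genotype. On the average of both genotypes 3 of the 36 were lower (8.33%, against 2.58% of features), namely SYNCRIP (-1.42, adjusted p = 0.00133), the paraspeckle protein NONO (-0.90, adjusted p = 0.0193) and the mRNA stabiliser ELAVL1 (HuR; -0.79, adjusted p = 0.0380), and 0 were higher. SYNCRIP remained called on leaving out any single array. NONO was lost without replicate 3 of either p53-/- group (adjusted p from 0.0514 to 0.0566), and ELAVL1 in 10 of 12 omissions (0.0505 to 0.0861), all but p53+/+ DMSO replicate 3 and p53+/+ INZ replicate 2. CELF1 changed by 0.97 in p53+/+ cells (adjusted p = 0.143).

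None of the 49 core spliceosome genes was called in either genotype or on average by limma, where 7, 3 and 10 had an unadjusted p below 0.05 in p53-/- cells, p53+/+ cells and the average (13.6%, 14.4% and 22.1% of features). Their median changes were 0.13 and 0.03 in p53-/- and p53+/+ cells (-0.0021 in p53+/+ cells without the array labelled p53+/+ DMSO replicate 1). USP39 came nearest on average (1.68, adjusted p = 0.0514), followed by PRPF4 (1.41, adjusted p = 0.0552), and DHX38, DDX23, DHX16 and PRPF38A had average changes from 0.49 to 1.42. Of 17 genes of nonsense-mediated decay and the exon junction, 1 was called, on average only (5.88%, close to the 5.68% of features): UPF2, a core decay factor, was 0.98 higher (adjusted p = 0.0489). It was called again without p53+/+ DMSO replicate 3 and in none of the other 11 omissions (adjusted p from 0.0558 to 0.119). MAGOH and PYM1 changed by 1.00 and -0.85 in p53-/- cells and SMG1, ETF1 and UPF3A by 1.12, -0.64 and 0.69 in p53+/+ cells, without a call, and UPF3A by 0.27 without the array labelled p53+/+ DMSO replicate 1. Of 7 cold shock domain genes, YBX2 was called on average (1.34, adjusted p = 0.0197), a call lost only without p53-/- INZ replicate 1 (adjusted p = 0.0543). It read 8.78, 8.81 and 8.34 in p53-/- INZ cells, 8.14, 8.28 and 6.25 in p53-/- DMSO cells, 8.93, 9.03 and 9.00 in p53+/+ INZ cells and 7.38, 7.24 and 7.54 in p53+/+ DMSO cells. The other 6, with YBX1 at 0.29 and 0.34 and YBX3 at 0.11 and 0.83 in p53-/- and p53+/+ cells, were not called. None of the 8 SR protein kinases and importers was called in either genotype or on average (1 at an unadjusted p below 0.05 in each), with CLK2, CLK3 and CLK4 at 0.29, 0.58 and 0.73 in p53-/- cells and TNPO3, SRPK1 and DYRK1A at 1.62, 0.70 and 0.68 in p53+/+ cells. Without the array labelled p53+/+ DMSO replicate 1 these 3 were at 0.37, 0.17 and 0.017, and the median of the list in p53+/+ cells was 0.11 rather than 0.40.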

How the data were processed

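RNA of the 12 HCT116 samples was hybridised to one-colour NimbleGen arrays. The authors deposited a single table of intensity values on a linear scale, made with RMA, which corrects the background, normalizes arrays against each other and summarises probes. The version and settings of RMA and the annotation build were not given in the sources used here. Values were log2-transformed without a pseudocount. The platform annotation named 18188 features and the RefSeq accession 678 more; 26167 stayed unnamed but were tested. Linear models (limma 3.58.1 in R 4.3.3) had 1 mean per group over 12 arrays, no covariate, trend or block, and were tested on simulated data. The 6 comparisons were INZ against DMSO in each genotype, their difference and average, and p53-/- against p53+/+ under each treatment. P-values were adjusted over 45033 features with 0.05 as the threshold. Dim means below the median feature (6.41).

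Members and lists were chosen with earlier results of these data known. Named genes were every called member, the 3 highest and 3 lowest of each family in each INZ comparison, genes whose features disagree, and the 3 smallest p of each list. CLK1, PRPF4B, PSPC1, FUBP3 and SF3A1 were among the list genes with no named feature, and some items are not reported here. Of the 66 genes, 8 were dim: SRSF12, HNRNPU, RBM11, RBM12, RBM33, RBM43, RBM46 and RBM48. Alternatives were quantile normalization, median centring, a mean-intensity trend, testing bright features only, separate fits per comparison, a replicate block, weights per array, each array's lower quartile as covariate, averaging a gene's features, and omitting 2 arrays or any single array. The number of arrays limits the precision, and depth does not apply to them.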

Additional observations from a re-analysis of the deposited data

How the results depend on the processing

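CIRBP and RBM14 in p53-/- cells and on average were called in all 22 alternatives, and the difference between the responses was called for 0 members in each. In p53-/- cells the count of called members was 3 as reported, 5 with separate fits (6.01% of all features called) and 6 with array weights (6.65%). Without single arrays it was 2 to 3 (0.509% to 2.92%). In p53+/+ cells it was 2 as reported (0.862%), 0 with separate fits (0.02%) and 0 with the lower quartile as a covariate (0.286%). It was 1 without a pair of arrays (replicate 1 of p53+/+ DMSO with replicate 3 of p53+/+ INZ, below both arrays), at 0.369% of features. Without single arrays it was 0 to 3 (0.18% to 2.63%). Between genotypes under DMSO it was 0 as reported (0.211%) and 0 to 1 without single arrays (0.0378% to 1.17%). Under INZ it was 1 as reported, and 2 with a trend (0.553%), with the filter on dim features (1.19%) and with quantile normalization. It was 0 with separate fits, 10 without both arrays (9.54%), 6 with array weights (5.48%) and 0 to 5 without single arrays (0.131% to 3.67%). On average it was 7 as reported (5.68%), 2 without both arrays (4.26%) and 2 with the covariate (1.39%). Without single arrays it was 2 to 10 (2.73% to 8.82%). Shares of all features as reported were 1.48% in p53-/- cells and 0.484% between genotypes under INZ. The share under INZ was also 0.484% with quantile normalization, and 0.286% with separate fits. Both called members and called features were more numerous with array weights in these comparisons, with separate fits in p53-/- cells and without both arrays under INZ. The cause was not tested. Separate fits use fewer arrays. With the replicate number as a block, 8 members were called on average (6.8% of features), and the block changed no other count. Same-numbered arrays deviated together at r from -0.189 to 0.332, so the numbers were not taken as pairs.

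Over 51 results for named genes, 1004 values kept direction and side of the threshold, 86 lost the call, 15 gained it and 14 changed sign, none of them called. In p53+/+ cells the sign changes were SRSF12 (0.12 without both arrays, 0.061 with array weights, 0.15 with the covariate, -0.41 to 0.017 without single arrays), SRSF6 (0.12, 0.020 and 0.19 in the first 3, -0.31 to 0.0080 without single arrays), SRSF11 (-0.28 without both arrays, -0.21 with the covariate, -0.028 to 0.75 without single arrays), HNRNPR (-0.10 without both arrays) and RBM38 (-0.23 with the covariate). In p53-/- cells SRSF12 was 0.0044 with the covariate.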
